A study of Homo sapiens with 16 samples.

Results

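NRF2, encoded by NFE2L2, is a transcription factor that switches on genes for the handling of oxidants, iron and foreign compounds, and 34 genes of this antioxidant and ferritin programme were followed here among the 63677 gene identifiers of the count table. The members were taken by gene symbol from a named list that spans NRF2 and its inhibitor KEAP1, glutathione and thioredoxin enzymes, both ferritin subunits, haem-degrading enzymes, suppliers of NADPH and detoxifying reductases. All 34 were found, and 31 of them could be tested in MiaPaCa2 and 28 in PANC1 after genes with low counts were left out.

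Messenger RNA was sequenced from MiaPaCa2 and PANC1, which are established human pancreatic ductal adenocarcinoma lines grown in the same medium. Each line had 4 groups of 2 libraries, which were a control, 40 nM gemcitabine, 50 µM genistein and both drugs at these doses, all collected at 24 h, for 16 libraries in 8 groups. Gemcitabine is a nucleoside analogue that blocks DNA synthesis and genistein is a soy isoflavone that binds oestrogen receptors. The study describes its replicates, I and II, as biological. Each line is a single model, and genistein was dissolved in DMSO.

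Under resting conditions KEAP1 holds NRF2 in the cytoplasm and passes it to the proteasome. Oxidants or electrophiles that modify KEAP1 let NRF2 reach the nucleus, pair with a small MAF protein such as MAFG, and bind the antioxidant response element of its target genes. Those targets make glutathione, reduce thioredoxin and peroxiredoxin, store iron in ferritin, return biliverdin to bilirubin and renew NADPH. Because NRF2 is controlled mainly through the stability of its protein, the level of NFE2L2 mRNA is a limited measure of its activity.

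The libraries held 12943482 to 31991860 reads counted in genes, with a median of 16059396.5. Keratins KRT8, KRT18 and KRT19 and vimentin were present in every library. The acinar genes PRSS1, CPA1 and PNLIP and the islet genes INS, GCG and SST were at 0 counts throughout. The acinar gene CELA3A had at most 2 counts. The epithelial gene EPCAM was at 0 FPKM in MiaPaCa2 and between 7.71 and 12.8 FPKM in PANC1. KRT7 and CDH1 reached 1.7 and 0.02 FPKM in MiaPaCa2 and 21 and 13.2 FPKM in PANC1. Of other cell types, the leukocyte gene CD68 reached 37.6 FPKM in MiaPaCa2 and 221 FPKM in PANC1, on at most 17 counts. CD14, the endothelial CDH5 and the erythroid HBA1 reached 4.98, 1.72 and 8.12 FPKM in MiaPaCa2 and 1.48, 0.04 and 4.6 FPKM in PANC1. PTPRC, CD3E, PECAM1, VWF and HBB had at most 4 counts. FPKM are fragments scaled to transcript length and to sequencing depth. Replicates differed by more than sampling noise, with a chi-square per degree of freedom from 2.76 in the genistein libraries of PANC1 to 36.4 in its control libraries. Counts also drifted with the GC content of genes to a different extent in each library, from −0.238 log2 units per 10 percentage points of GC in MiaPaCa2 control I to 0.306 in PANC1 control I. In MiaPaCa2 the slopes of the control libraries (−0.238 and −0.139) lay below those of the gemcitabine libraries (0.152 and 0.056), so values or counts corrected for GC content are given beside the main ones. In bulk RNA, fewer cells of a type and less RNA per cell cannot be told apart.

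The short antioxidant response element core, TGACNNNGC read on either strand, shows what NRF2 is known to bind. It was searched in windows of 300 bases, 250 before and 50 after each start site, taken from RefSeq on GRCh38.p14. Of the 34 members, 28 matched a window, and 9 of these 28 held the core in at least 1 window (CBR1, EPHX1, GCLM, GPX2, KEAP1, ME1, PGD, PIR and TXNRD1). Of all 35116 windows, 13.3% held it. That share is per window, while the members are counted per gene over 37 windows, so the figures are not like for like. With an A required after the core the count was 6 members, and the share of all windows was 3.18%. The stretches that follow, each read 5′ to 3′ on the strand that carries the core, are shown because these members recur in the comparisons, and the capitals mark the core.
GCLM, chr1:93909446-93909474 (+): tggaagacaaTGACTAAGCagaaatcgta
KEAP1, chr19:10502784-10502812 (+): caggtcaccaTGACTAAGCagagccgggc
EPHX1, chr1:225825266-225825294 (+): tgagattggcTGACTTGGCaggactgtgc
CBR1, chr21:36069855-36069883 (−): ccagctagccTGACTTTGCagaacccgca
TXNRD1, chr12:104286920-104286948 (−): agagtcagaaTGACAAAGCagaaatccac
ME1, chr6:83431170-83431198 (−): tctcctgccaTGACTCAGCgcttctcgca
PIR, chrX:15493289-15493317 (+): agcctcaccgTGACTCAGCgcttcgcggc
The core of GCLM lay 30 bases before the start site, that of KEAP1 27, that of EPHX1 74, that of CBR1 155, that of TXNRD1 98 and that of ME1 133, while the core of PIR lay 30 bases after it. The cores of GCLM and KEAP1 had the same letters. In ME1 and PIR the core contains TGACTCA, which is also the site of AP-1. KEAP1 and ME1 each held 1 further match and TXNRD1, across its start sites, 2 further matches that are not shown. A match is a run of letters and was not tested as a binding site.

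The first comparison asked how the programme was set in the untreated lines. MiaPaCa2 carried the higher levels of most effector enzymes. The reductase NQO1 was 6.11-fold higher there, light-chain ferritin FTL 3.45-fold, the glutathione synthesis subunit GCLM 3.86-fold and the lipase ABHD4 5.08-fold, and 3 aldo-keto reductases of the AKR1C family were close to absent from PANC1. PANC1 in turn carried more of NFE2L2, KEAP1 and MAFG themselves and of HMOX1, BLVRA and UGDH. By limma-voom with Benjamini-Hochberg adjustment (adjusted p at most 0.05, log2 difference of at least 0.4, FPKM above 1 in at least 1 line), 17 of the 31 members tested were lower in PANC1 and 10 were higher. Among all 17863 genes tested, 24.3% were called lower in PANC1 and 27.9% higher.

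**Figure D1:**
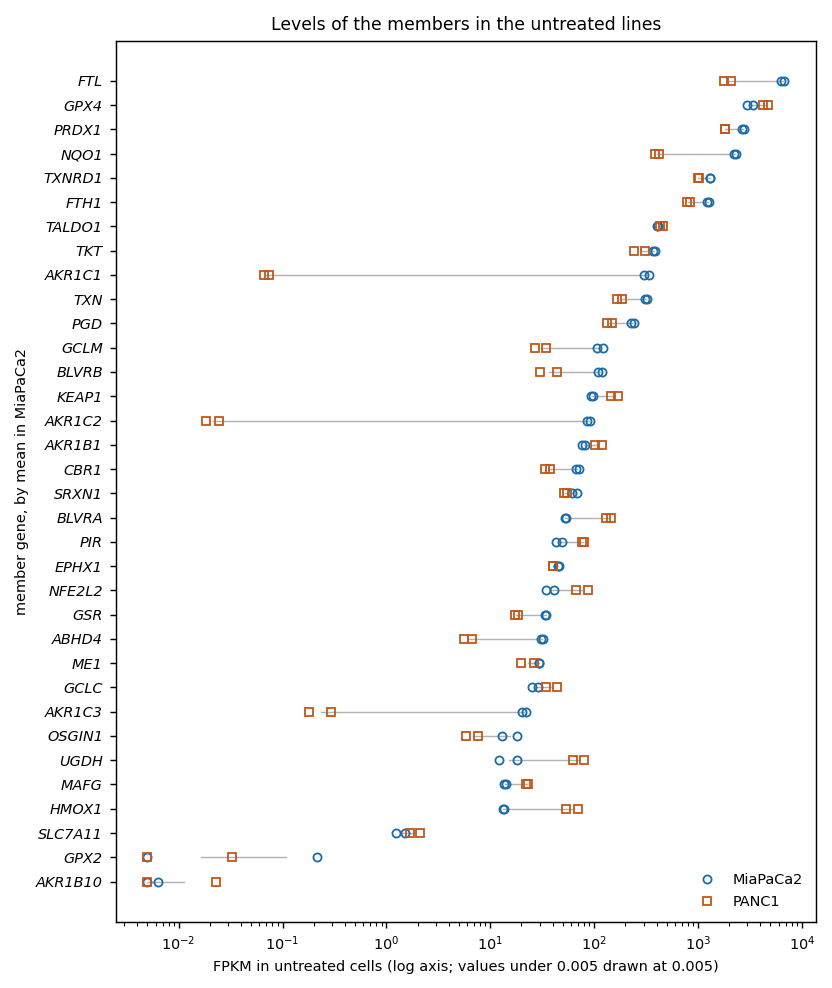
Level in FPKM (log axis) of each of the 34 members in the 4 control libraries, with circles for MiaPaCa2, squares for PANC1 and a grey line joining the means of 2 libraries. AKR1C1 and AKR1C2 stand far to the right in MiaPaCa2 and under 0.1 FPKM in PANC1, and FTL, GPX4 and PRDX1 are the 3 highest members by FPKM in both lines.

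Of the regulators, NFE2L2 was at 41.0 and 34.3 FPKM in the MiaPaCa2 controls and at 67.2 and 86.8 FPKM in those of PANC1. The groups did not overlap, and the level was 1.85-fold higher in PANC1 (log2 difference 0.88, SE 0.20, adjusted p = 0.00139). KEAP1, the substrate adaptor that marks NRF2 for destruction, was at 98.1 and 94.1 FPKM against 171 and 147 FPKM, and was higher in PANC1 by 0.88 log2 units (SE 0.17, adjusted p = 0.000632), or by 0.47 after correction for GC content. MAFG, a partner of NRF2 on DNA, was at 14.3 and 13.6 FPKM against 23.3 and 22.03 FPKM (log2 difference 0.68, SE 0.10, adjusted p = 4.63e-05). All 3 regulators were thus higher in PANC1 in both control libraries, a separation that was not counted over all genes.

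Glutathione genes were split between the lines. GCLM, the modifier subunit of glutamate-cysteine ligase, was at 123 and 107.6 FPKM in MiaPaCa2 and at 27.0 and 34.4 FPKM in PANC1 (log2 difference −1.95, SE 0.15, adjusted p = 1.16e-07). Its catalytic partner GCLC was at 28.8 and 25.1 FPKM against 34.4 and 44.1 FPKM (log2 difference 0.40, SE 0.14, adjusted p = 0.024). That call sat at the fold limit and was lost without control replicate II of PANC1 (adjusted p = 0.18) or either MiaPaCa2 control (0.14 and 0.089). Glutathione reductase GSR was lower in PANC1 (log2 difference −0.88, adjusted p = 2.58e-06). GPX4, which repairs lipid peroxides, had the highest level per length of all members in PANC1, at 4725 and 4249 FPKM, against 2992 and 3380 FPKM in MiaPaCa2. Its log2 difference of 0.49 (SE 0.20, adjusted p = 0.0486) turned to −0.01 after the GC correction (adjusted p = 0.86), and 62.5% of its exon bases are G or C. The call was also lost without either MiaPaCa2 control (adjusted p = 0.255 and 0.0931) or PANC1 control I (0.427). SLC7A11, the cystine importer, was low in both, at 1.52 and 1.23 FPKM against 1.70 and 2.09 FPKM (log2 difference 0.42, SE 0.27, adjusted p = 0.186), and was called higher in PANC1 after the GC correction (0.52, adjusted p = 0.00266).

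The thioredoxin genes were lower in PANC1. Thioredoxin itself, TXN, was at 323 and 308 FPKM in MiaPaCa2 and at 165 and 187 FPKM in PANC1 (log2 difference −1.05, SE 0.09, adjusted p = 2.62e-07), and the peroxide-reducing PRDX1 at 2796 and 2633 FPKM against 1841 and 1834 FPKM (−0.59, SE 0.08, adjusted p = 1.93e-05). TXNRD1, which recharges thioredoxin with NADPH, was at 1316 and 1299 FPKM against 1028 and 995 FPKM. Its log2 difference of −0.30 (adjusted p = 0.00702) was under the fold limit. The groups of all 3 genes were apart, but how many of all genes were separated in this way was not counted.

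FTL was the most abundant member in MiaPaCa2. It was at 6333 and 6786 FPKM there and at 2099 and 1794 FPKM in PANC1 (log2 difference −1.79, SE 0.11, adjusted p = 9.57e-09). Heavy-chain ferritin FTH1, the subunit that oxidises iron for storage, was at 1291 and 1225 FPKM against 833 and 790 FPKM (−0.68, SE 0.10, adjusted p = 5.88e-05). The haem genes did not follow one direction. Haem oxygenase HMOX1 was at 13.4 and 13.3 FPKM in MiaPaCa2 and at 70.6 and 54.2 FPKM in PANC1 (log2 difference 2.15, SE 0.19, adjusted p = 4.48e-07). Of the biliverdin reductases, BLVRA was higher in PANC1 (log2 difference 1.57, SE 0.11, adjusted p = 3.79e-08) and BLVRB lower (−1.51, SE 0.26, adjusted p = 0.000184).

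Among the NADPH suppliers, PGD of the pentose phosphate pathway was at 228 and 243 FPKM in MiaPaCa2 and at 149 and 132 FPKM in PANC1 (log2 difference −0.83, SE 0.09, adjusted p = 3.64e-06). TKT and the malic enzyme ME1 were lower in PANC1, with log2 differences of −0.48 and −0.40 (adjusted p = 0.0123 and 0.00949), and TALDO1 was at 407 to 466 FPKM over the 4 controls (adjusted p = 0.198). The calls of TKT and ME1 depended on single libraries, since TKT was lost without PANC1 control II (adjusted p = 0.22) or MiaPaCa2 control II (0.061) and ME1 came under the fold limit without PANC1 control I (−0.28) and after the GC correction (−0.21).

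NQO1 had the smallest adjusted p of all members between the lines. This quinone reductase was at 2309 and 2215 FPKM in MiaPaCa2 and at 421 and 390 FPKM in PANC1 (log2 difference −2.61, SE 0.08, adjusted p = 1.54e-11). UGDH, which makes the UDP-glucuronate used to conjugate drugs, ran the other way, at 18.2 and 12.1 FPKM against 63.3 and 79.4 FPKM (2.13, SE 0.14, adjusted p = 1.77e-08). The carbonyl reductase CBR1 was lower in PANC1 (log2 difference −1.003, adjusted p = 1.63e-05). The iron-binding pirin PIR and the aldose reductase AKR1B1 were higher by 0.74 and 0.46 (adjusted p = 1.58e-05 and 0.0034), the latter by 0.35 after GC correction and by 0.26 without PANC1 control I, both under the fold limit. ABHD4 was at 30.9 and 32.2 FPKM in MiaPaCa2 and at 6.67 and 5.54 FPKM in PANC1 (−2.35, SE 0.13, adjusted p = 4.26e-09). OSGIN1, a growth inhibitor induced by oxidative stress, was lower in PANC1 (log2 difference −1.03, SE 0.29, adjusted p = 0.00645), a call lost without MiaPaCa2 control II (adjusted p = 0.06) or PANC1 control II (0.096). The epoxide hydrolase EPHX1 was at 45.1 and 45.6 FPKM against 39.8 and 40.0 FPKM, a log2 difference of −0.31 (adjusted p = 0.029) that was under the fold limit and was called after the GC correction (−0.45, adjusted p = 3.7e-05).

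The AKR1C genes, which reduce steroids and carbonyl compounds, separated the lines the most. AKR1C1 was counted 3905 and 2744 times in the MiaPaCa2 controls and 2 and 3 times in those of PANC1. Scaled to counted reads, the ratio was 2365 to 1 (95% exact interval 1013 to 7286, which covers counting error only). AKR1C2 was counted 710 and 501 times against 0 and 0, so it was at least 718-fold lower in PANC1 with 3 counts over both libraries taken as the floor. AKR1C3 had 22 and 22 counts in MiaPaCa2 and 3 and 3 in PANC1, a ratio of 13 to 1 (95% exact interval 5.54 to 37.5). The 3 genes are near copies of each other, and reads with several alignments were removed before counting. AKR1C3 in particular had 21.99 and 20.01 FPKM in the MiaPaCa2 controls on those 22 counts per library. AKR1B10 and GPX2 had at most 2 and 1 counts in any of the 16 libraries and were not tested, although the window of GPX2 held the core.

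Genistein alone was compared with the control to see whether this isoflavone moved the programme. NQO1 and FTL rose in both lines. In MiaPaCa2, 7 of 31 members rose and 0 fell, namely NQO1, FTL, FTH1, GPX4, BLVRA, CBR1 and EPHX1, with folds from 1.34 for FTH1 to 1.91 for EPHX1. Over all 16064 genes tested in this comparison 4.18% were called higher and 4.13% lower. In PANC1 the 2 members that rose were NQO1 and FTL, among only 0.0591% of 16909 genes called higher and 0% called lower. A count of 1 fallen member in MiaPaCa2 and 1 in PANC1 was found at an unadjusted p under 0.05, and by both edgeR and DESeq2 0 members fell in either line. The median log2 difference of the members tested was 0.17 in MiaPaCa2 and 0.37 in PANC1, beside −0.0039 and 0.05 over all genes. The difference was above 0 in 26 of 31 members in MiaPaCa2 and in 23 of 28 in PANC1.

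NQO1 was at 2309 and 2215 FPKM in the control and 3210 and 3124 FPKM with genistein in MiaPaCa2, a 1.38-fold rise (log2 0.47, SE 0.07, adjusted p = 0.00198). In PANC1 it was at 421 and 390 FPKM and then 649 and 656 FPKM, a 1.64-fold rise (log2 0.72, SE 0.07, adjusted p = 0.0382). The control and genistein libraries did not overlap in either line. The gene lies on the minus strand at chr16:69740899-69760571 of GRCh37, the build of the files.

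The ferritin subunits moved in the same direction. FTL (chr19:49468566-49470136, plus strand) went from 6333 and 6786 to 9854 and 9336 FPKM in MiaPaCa2, 1.47-fold (log2 0.56, SE 0.08, adjusted p = 0.00185). It went from 2099 and 1794 to 3526 and 3401 FPKM in PANC1, 1.78-fold (0.84, SE 0.09, adjusted p = 0.0382). FTH1 (chr11:61727190-61735106, minus strand) went from 1291 and 1225 to 1684 and 1682 FPKM in MiaPaCa2, 1.34-fold (0.42, SE 0.08, adjusted p = 0.00867). Corrected for GC content this was 0.28 and under the fold limit. In PANC1 FTH1 was at 833 and 790 FPKM in the control and at 1438 and 1436 FPKM with genistein, with the groups apart, but the log2 difference of 0.76 (SE 0.10) had an adjusted p of 0.0562. After GC correction it was 0.69 with an adjusted p of 0.00219. Of the exon length of FTH1, 63.2% overlaps BEST1 on the opposite strand. The same holds for 29.8% of PRDX1, 24.8% of NFE2L2, 19.4% of NQO1, 18.9% of CBR1 and 12.7% of UGDH, and without a stated strand setting the reads of such pairs cannot be told apart. Both ferritin genes have processed pseudogenes that can take part of their reads.

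EPHX1 (chr1:225997826-226033264, plus strand) showed the largest rise of the members in MiaPaCa2. It went from 45.1 and 45.6 to 87.5 and 83.6 FPKM, 1.91-fold (log2 0.93, SE 0.09, adjusted p = 0.000442). In PANC1 it was at 39.8 and 40.0 FPKM and then 66.1 and 70.7 FPKM, a log2 difference of 0.86 (SE 0.11) with an adjusted p of 0.06, or 0.88 with 0.00163 after GC correction. The other members called in MiaPaCa2 were closer to the fold limit. GPX4 went from 2992 and 3380 to 4880 and 4459 FPKM (log2 0.44, adjusted p = 0.027), BLVRA from 52.6 and 53.3 to 71.2 and 56.0 FPKM (0.48, adjusted p = 0.0202) and CBR1 from 71.4 and 66.8 to 99.0 and 90.0 FPKM (0.45, adjusted p = 0.015). The calls of BLVRA and CBR1, at 0.37 and 0.32 after GC correction, came under the fold limit, and that of GPX4 held at 0.40. After the correction 5 members rose and 0 fell, with GCLM added at 0.41 (adjusted p = 0.00117), against 4.94% and 5.71% of all genes.

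SRXN1, sulfiredoxin, which restores over-oxidised peroxiredoxin, could be read only in FPKM. It had 0 to 6 counts per library and 90.7% of its exon length is shared with another annotated gene on the same strand, while its level was 48.3 to 122 FPKM. By limma-trend on log2(FPKM + 1), it rose with genistein from 68.4 and 61.9 to 98.1 and 98.7 FPKM in MiaPaCa2 (0.59, SE 0.08, adjusted p = 0.0336). In PANC1 it rose from 54.9 and 51.1 to 122 and 118 FPKM (1.17, SE 0.08, adjusted p = 0.00986). FPKM of overlapping genes are model estimates of how shared reads divide.

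Several other members in PANC1 had wide differences without a call. ABHD4 was at 6.67 and 5.54 FPKM in the control and 14.7 and 15.8 FPKM with genistein (log2 0.95, SE 0.16, adjusted p = 0.0915), and ME1 at 20.0 and 26.5 FPKM and then 40.5 and 40.7 FPKM (0.83, SE 0.16, adjusted p = 0.109). TXNRD1 was at 1028 and 995 FPKM and then 1730 and 1308 FPKM (0.63, SE 0.10, adjusted p = 0.0915), and GCLC at 34.4 and 44.1 FPKM and then 56.1 and 53.8 FPKM (0.66, SE 0.17, adjusted p = 0.129). In each of these the 2 genistein libraries lay above both controls. How many of all genes were separated in this way, here or in the other comparisons, was not counted. With the GC correction 11 members were called higher (NQO1, FTL, FTH1, EPHX1, ABHD4, ME1, TXNRD1, GCLC, HMOX1, OSGIN1 and SLC7A11) and 1 lower (UGDH), where 4.24% and 3.41% of all genes were called. DESeq2 called 9 members higher, with its share of all genes not given here.

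The number of members called under genistein depended on single libraries. In MiaPaCa2 it was 3 of 31 without either control replicate and 4 without genistein replicate I, and NQO1, FTL and EPHX1 stayed called under each of these. In PANC1 it was 1 without control replicate I (FTL) and 0 without control replicate II or either genistein replicate.

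**Figure D2:**
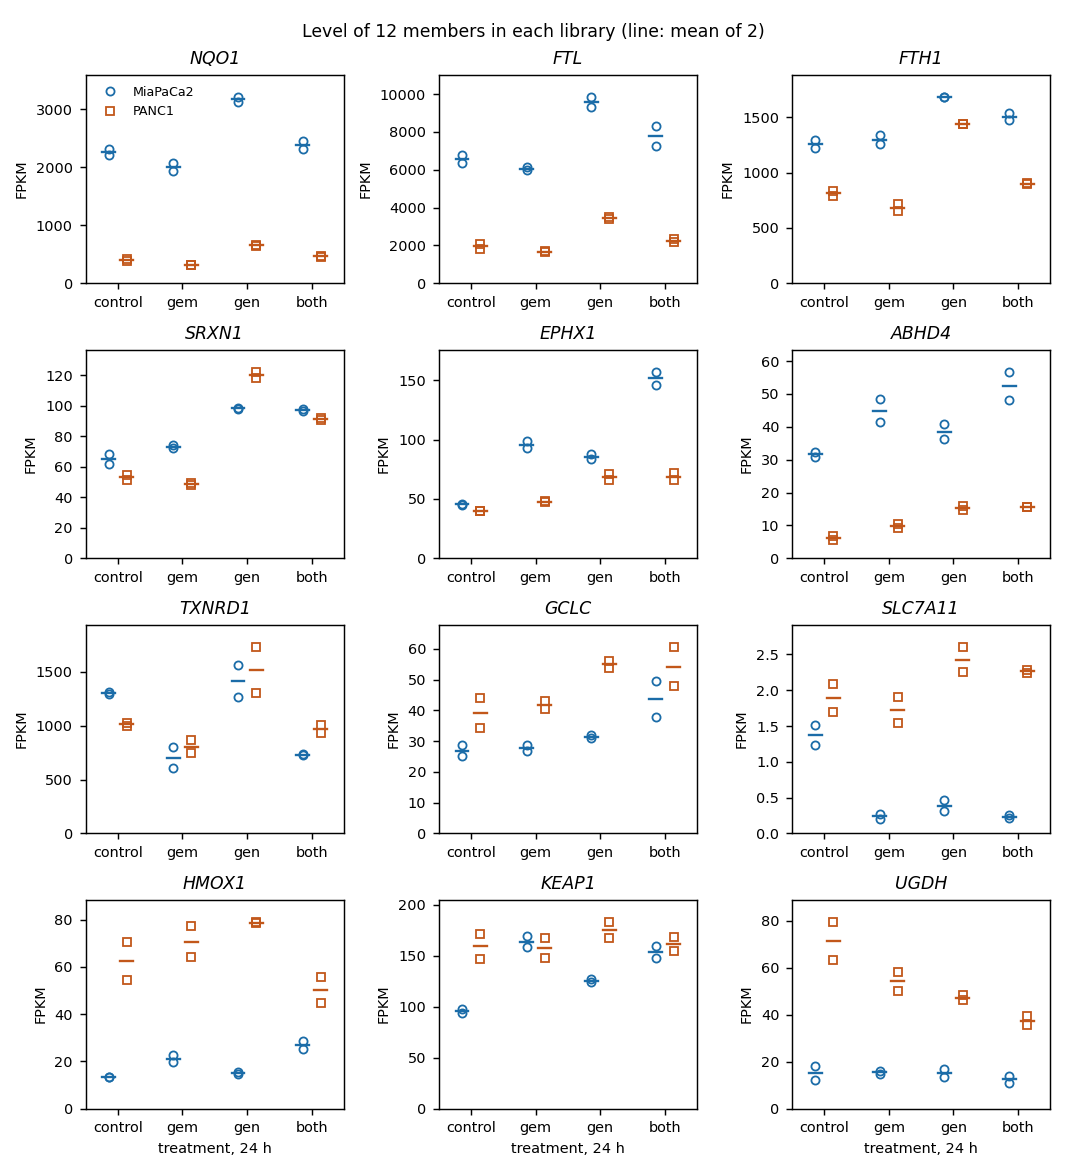
Level in FPKM of 12 members in each of the 16 libraries at 24 h, with circles for MiaPaCa2, squares for PANC1 and a bar at the mean of 2 libraries (gem, gemcitabine; gen, genistein). In both lines NQO1, FTL, FTH1 and SRXN1 lie higher in both genistein libraries than in both controls, and SLC7A11 in MiaPaCa2 lies under 0.5 FPKM in all 6 treated libraries.

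SLC7A11 went against most of the group. In MiaPaCa2 it had 174 and 131 counts in the controls and 56 and 78 with genistein, at 1.52 and 1.23 FPKM and then 0.46 and 0.31 FPKM. The log2 difference was −1.36 (SE 0.18, adjusted p = 0.00131), or −0.95 after GC correction, and it was not called because the treated level was under 1 FPKM. In PANC1 the level was 1.70 and 2.09 FPKM in the control and 2.25 and 2.60 FPKM with genistein (log2 0.49, SE 0.33, adjusted p = 0.455). NFE2L2 and KEAP1 were not called in either line, with log2 differences of −0.09 and 0.27 in MiaPaCa2 and −0.18 and −0.21 in PANC1.

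The difference between the lines in the response to genistein was tested directly. By limma-voom 0 of 31 members differed in either direction, and 0.00560% and 0.0280% of 17863 genes were called with a positive and a negative difference. At an unadjusted p under 0.05, 6 members were higher and 2 lower. edgeR called 0 members and DESeq2 called 3 higher and 0 lower. No share of all genes is given for the unadjusted and DESeq2 counts. The smallest adjusted p was 0.0938, for ME1, with a difference of 0.92 (SE 0.17). For NQO1 the difference of PANC1 minus MiaPaCa2 was 0.20 (SE 0.11) and for EPHX1 −0.13 (SE 0.16). After GC correction 7 members were called with a positive and 2 with a negative difference of PANC1 minus MiaPaCa2, among them FTL (0.38, adjusted p = 0.0119), ABHD4 (0.75, adjusted p = 0.00488) and UGDH (−0.67, adjusted p = 0.00798). The count of positive calls by limma-voom was larger without PANC1 control replicate II, and the share of all genes there is not given.

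Members with the antioxidant response element core and all other tested members were set side by side for genistein, with no test. The other members include FTH1, GSR, HMOX1, PRDX1 and SLC7A11, which matched no window and so could not be searched. In MiaPaCa2, 2 of the 8 tested members with the core were called higher, and 5 of the 23 others, FTH1 among them. The median log2 differences were 0.25 and 0.12. In PANC1 the medians were 0.42 over 8 and 0.34 over 20 members. Both sets covered wide ranges, from −0.14 to 0.93 and from −1.36 to 0.56 in MiaPaCa2, where the value of −1.36 was that of SLC7A11. The windows reach only 250 bases before a start, and a member without the core in them may hold it elsewhere.

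Gemcitabine alone gave a different picture in each line. In MiaPaCa2, 8 of 31 members rose (KEAP1, HMOX1, OSGIN1, BLVRA, BLVRB, PIR, ABHD4 and EPHX1) and 2 fell (GCLM and TXNRD1). Of all genes, 15.0% were called higher and 14.6% lower there, so the members' counts stood against a broad background of called genes. In PANC1 0 members rose and 5 fell (NQO1, TXNRD1, TKT, PIR and UGDH), where 4.49% of all genes were called higher and 3.03% lower. At an unadjusted p under 0.05 the count of risen members in PANC1 was also 0, and 13 members were lower. No share of all genes is given at that unadjusted p. By edgeR and DESeq2 the count of risen members in PANC1 was 0 as well. These comparisons and those of genistein and of both drugs share the same 2 control libraries in each line.

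**Figure D3:**
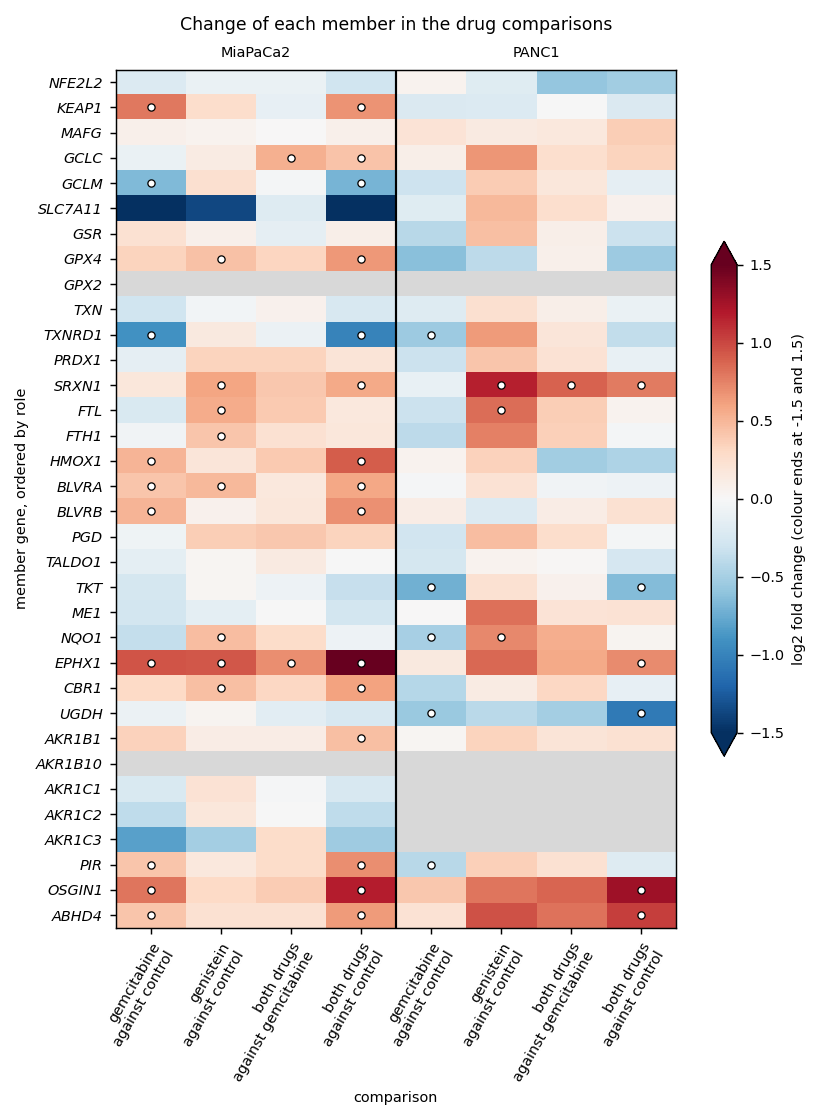
Log2 fold change of each member (rows, by role) in 4 comparisons in MiaPaCa2 (left) and PANC1 (right), red for higher and blue for lower, with white dots where the call was made and grey where a member was not tested (SRXN1 on the log2(FPKM + 1) scale). TXNRD1 carries dots in blue for gemcitabine in both lines, and EPHX1 carries dots in red in all 4 comparisons of MiaPaCa2.

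TXNRD1 fell in both lines. In MiaPaCa2 it went from 1316 and 1299 to 803 and 605 FPKM, by −0.91 on the log2 scale (SE 0.08, adjusted p = 1.16e-05), and in PANC1 from 1028 and 995 to 864 and 744 FPKM (−0.54, SE 0.11, adjusted p = 0.0242). No gemcitabine library overlapped the controls. GCLM fell in MiaPaCa2 from 123 and 107.6 to 78.5 and 87.4 FPKM (−0.67, SE 0.12, adjusted p = 0.00102), which was −0.32 and under the fold limit after GC correction. NQO1 was at 1934 and 2064 FPKM with gemcitabine in MiaPaCa2, a log2 difference of −0.35 (adjusted p = 0.0018) that was under the fold limit. In PANC1 NQO1 fell to 312 and 309 FPKM, by −0.50 (SE 0.08, adjusted p = 0.01).

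SLC7A11 again differed most in size in MiaPaCa2. It had 51 and 39 counts with gemcitabine against 174 and 131 in the controls (log2 −1.95, SE 0.20, adjusted p = 2.31e-05, or −1.41 after GC correction), at 0.27 and 0.21 FPKM. That level is under the 1 FPKM asked of a call. In PANC1 it was at 1.90 and 1.54 FPKM against 1.70 and 2.09 FPKM, and the groups overlapped.

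EPHX1 rose with gemcitabine in MiaPaCa2 from 45.1 and 45.6 to 92.5 and 98.7 FPKM, 1.93-fold (log2 0.94, SE 0.09, adjusted p = 1.77e-05). KEAP1 (chr19:10596801-10614234, minus strand) rose from 98.1 and 94.1 to 169 and 158 FPKM (0.80, SE 0.11, adjusted p = 0.000206) and by 0.47 after GC correction. OSGIN1 rose from 12.998 and 18.2 to 29.3 and 25.3 FPKM (0.80, SE 0.21, adjusted p = 0.00873), and PIR from 49.0 and 42.8 to 63.4 and 74.8 FPKM (0.41, SE 0.11, adjusted p = 0.00866). These 4 kept their calls after the GC correction. Without 1 library, OSGIN1 lost its call when control I (adjusted p = 0.119) or gemcitabine I (0.106) was left out, and PIR when control II (log2 0.35, adjusted p = 0.0911) or gemcitabine II (0.32, adjusted p = 0.0886) was left out.

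The haem enzymes and ABHD4 did not. HMOX1 went from 13.4 and 13.3 to 22.6 and 19.6 FPKM (0.51, SE 0.12, adjusted p = 0.00616), BLVRA from 52.6 and 53.3 to 61.0 and 68.6 FPKM (0.42, adjusted p = 0.0117), BLVRB from 109.03 and 119 to 169 and 145 FPKM (0.51, adjusted p = 0.016) and ABHD4 from 30.9 and 32.2 to 41.5 and 48.4 FPKM (0.41, adjusted p = 0.00307). Corrected for GC content they were at 0.32, 0.36, 0.20 and 0.29, and in all 4 members rose and 2 fell (TXNRD1 and TKT, the latter at −0.46), against 14.7% and 12.5% of all genes. The part of GC content in these differences was not tested beyond that correction. KEAP1 and EPHX1 kept their calls without any 1 library. The count of 8 was smaller without control replicate I or gemcitabine replicate I. The count of 2 that fell was larger without gemcitabine replicate II, and the share of all genes there is not given. With library sizes alone in place of TMM factors, 3079 genes were higher and 1554 lower, against 2402 and 2345.

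In PANC1 the transketolase TKT fell from 310 and 243 to 194 and 170 FPKM (−0.71, SE 0.16, adjusted p = 0.0337), UGDH from 63.3 and 79.4 to 50.1 and 58.2 FPKM (−0.56, SE 0.14, adjusted p = 0.046) and PIR from 76.3 and 80.3 to 59.2 and 61.9 FPKM (−0.42, SE 0.10, adjusted p = 0.038). FTL and FTH1 were not called, with log2 differences of −0.32 (adjusted p = 0.0656) and −0.39 (adjusted p = 0.0506). After the GC correction 8 members were lower, the 5 above with GCLM (−0.48), SLC7A11 (−0.43) and GPX4 (−0.46) added, and OSGIN1 was higher (0.56), against 6.53% and 11.8% of all genes. Without either gemcitabine library 0 members were called lower, and 3 were without control replicate I. With library sizes alone only 1 member, TKT, fell, and all genes split into 1167 higher and 317 lower in place of 759 and 513.

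The lines were also compared directly in their response to gemcitabine. The difference of PANC1 minus MiaPaCa2 was positive for 1 member and negative for 7 of 31, beside 6.21% and 9.06% of all genes. The positive one was SLC7A11, which was 3.86-fold lower with gemcitabine in MiaPaCa2 and 1.14-fold lower in PANC1 (difference 1.65 log2 units, SE 0.44, adjusted p = 0.0265). PIR rose in MiaPaCa2 and fell in PANC1, a difference of −0.93 (SE 0.14, adjusted p = 0.0011). EPHX1, KEAP1, CBR1 and GSR differed by −0.90, −1.11, −0.82 and −0.73 (adjusted p = 0.00341, 0.0108, 0.0132 and 0.00466). GPX4 and BLVRA differed by −1.05 and −0.54 (adjusted p = 0.0284 and 0.0305). All 8 were also called after the GC correction, KEAP1 and GPX4 at −0.60 and −0.50, in counts of 2 positive and 9 negative. KEAP1, GPX4, CBR1 and BLVRA each lost the call without some single library, while PIR, EPHX1 and GSR kept it. The count of 7 was smaller without either control replicate of MiaPaCa2 or gemcitabine replicate II of PANC1. It was larger without control replicate II of PANC1, and the share of all genes there is not given. The call of SLC7A11 was lost without any 1 of the 4 MiaPaCa2 libraries or without gemcitabine replicate II of PANC1, at differences of 1.47 to 1.80.

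**Figure D4:**
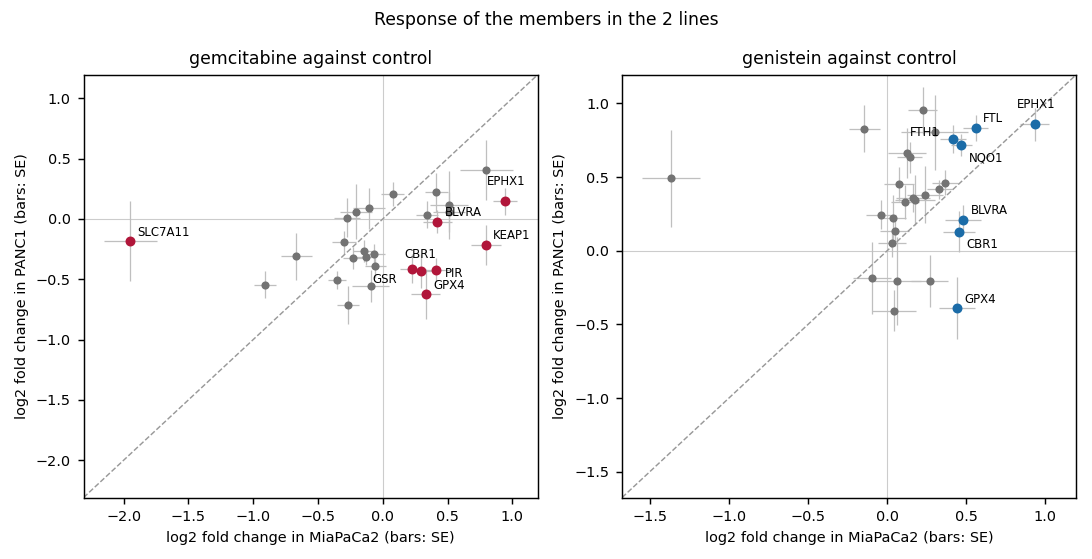
Log2 fold change against control in PANC1 plotted on that in MiaPaCa2 for the 28 members tested in both lines, for gemcitabine (left) and genistein (right), with bars for the standard error and a dashed line of equal response. Red points are the 8 members whose gemcitabine response differed between the lines, with all but SLC7A11 under the dashed line, and blue points are members called for genistein in at least 1 line.

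Both drugs were compared with gemcitabine alone, which asks what genistein added. In MiaPaCa2 EPHX1 rose from 92.5 and 98.7 to 146 and 157 FPKM, 1.62-fold (log2 0.70, SE 0.09, adjusted p = 0.000761), and GCLC from 28.6 and 26.7 to 49.6 and 37.8 FPKM, 1.45-fold (0.53, SE 0.12, adjusted p = 0.019). The members that rose were 2 of 31 and 0 fell, with 4.05% of all genes called higher and 1.83% lower. The count of 0 was also 0 at an unadjusted p under 0.05 and by edgeR and DESeq2. FTL, PGD, PRDX1 and NQO1 were higher by 0.39, 0.40, 0.33 and 0.28 log2 units with adjusted p of 0.013, 0.0121, 0.0267 and 0.0314, under the fold limit. The number of members called higher depended on single libraries, and no share of all genes is given with 1 library left out. The call of GCLC was lost without gemcitabine replicate I (log2 0.51) or II (0.55) or without replicate I of both drugs (0.36).

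In PANC1 0 of 28 members were called in either direction when genistein was added to gemcitabine, with 0.0118% of all genes called higher and 0.00591% lower. At an unadjusted p under 0.05, 8 were higher and 3 lower, edgeR called 0 and DESeq2 called 3 higher and 0 lower. For the unadjusted and DESeq2 counts no share of all genes is given. NQO1 was at 312 and 309 FPKM with gemcitabine and at 453 and 477 FPKM with both drugs (log2 0.55, SE 0.08, adjusted p = 0.108), EPHX1 at 47.0 and 48.3 FPKM and then 65.5 and 72.2 FPKM (0.56, SE 0.11, adjusted p = 0.12) and ABHD4 at 9.25 and 10.3 FPKM and then 15.7 and 15.7 FPKM (0.82, SE 0.16, adjusted p = 0.119). After the GC correction these 3 were among 6 members called higher, against 4.46% of all genes, and 3 were called lower (NFE2L2, HMOX1 and UGDH), against 3.48%. SRXN1 rose from 48.3 and 49.4 to 90.9 and 91.7 FPKM on the log2(FPKM + 1) scale (0.89, SE 0.08, adjusted p = 0.0382).

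Against the control, 14 of 31 members were called with both drugs in MiaPaCa2 and 5 of 28 in PANC1. In MiaPaCa2 12 rose and 2 fell, with 20.3% of all genes called higher and 20.2% lower. EPHX1 showed the largest rise at 3.13-fold, from 45.1 and 45.6 to 146 and 157 FPKM (log2 1.64, SE 0.09, adjusted p = 1.04e-07). OSGIN1 rose from 12.998 and 18.2 to 32.7 and 45.0 FPKM (1.18, SE 0.20, adjusted p = 0.000377) and HMOX1 from 13.4 and 13.3 to 25.0 and 28.7 FPKM (0.91, SE 0.12, adjusted p = 5.95e-05). The other risen members were PIR (0.69), BLVRB (0.68), KEAP1 (0.67), GPX4 (0.65), ABHD4 (0.64), CBR1 (0.61), BLVRA (0.58), AKR1B1 (0.45) and GCLC (0.43). TXNRD1 fell to 725 and 734 FPKM (−0.998, SE 0.08, adjusted p = 1.67e-06) and GCLM to 89.3 and 78.7 FPKM (−0.70, SE 0.12, adjusted p = 0.000396). FTL, FTH1 and NQO1 had log2 differences of 0.16, 0.17 and −0.07 (adjusted p = 0.108, 0.0981 and 0.388).

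After the GC correction 8 members rose and 2 fell with both drugs in MiaPaCa2, against 20.1% and 18.9% of all genes. KEAP1, BLVRB, GPX4, CBR1, AKR1B1 and GCLM came under the fold limit at 0.31, 0.33, 0.26, 0.38, 0.23 and −0.23, while TKT was called at −0.61. TXN was called higher at 0.59 (adjusted p = 0.000352) only after the correction, which turned its direction, since the uncorrected log2 difference was −0.24 (adjusted p = 0.0532). SLC7A11 had 36 and 35 counts with both drugs (log2 −2.14, SE 0.22, adjusted p = 6.26e-06) at 0.22 and 0.25 FPKM. GCLC was lost without control replicate I (log2 0.43), control replicate II (0.42) or replicate I of both drugs (0.26). The count that fell was larger without either replicate of both drugs, and the share of all genes there is not given.

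In PANC1, OSGIN1, ABHD4 and EPHX1 rose with both drugs and TKT and UGDH fell. These counts of 3 higher and 2 lower among 28 members were near the shares of all genes, 10.2% and 6.90%. OSGIN1 went from 7.66 and 5.86 to 19.1 and 22.2 FPKM, 2.42-fold (log2 1.28, SE 0.24, adjusted p = 0.0102), ABHD4 from 6.67 and 5.54 to 15.7 and 15.7 FPKM, 2.05-fold (1.04, SE 0.15, adjusted p = 0.00405), and EPHX1 from 39.8 and 40.0 to 65.5 and 72.2 FPKM, 1.63-fold (0.71, SE 0.11, adjusted p = 0.00451). UGDH fell from 63.3 and 79.4 to 39.5 and 35.5 FPKM (−1.06, SE 0.15, adjusted p = 0.003) and TKT to 173 and 219 FPKM (−0.65, SE 0.16, adjusted p = 0.0267). EPHX1, OSGIN1 and ABHD4 were thus called higher with both drugs in each line, and TXNRD1 in PANC1 was at −0.36 (adjusted p = 0.0501). After the GC correction 4 members were higher, with MAFG added at 0.41, and 6 lower, with NFE2L2 (−0.55), HMOX1 (−0.43), TXNRD1 (−0.41) and GPX4 (−0.42) added, against 16.8% and 12.8% of all genes. The count that fell was larger without control replicate II, and the share of all genes there is not given. TKT was lost without control replicate I (adjusted p = 0.0502) or replicate I of both drugs (0.107). SRXN1 rose with both drugs on the log2(FPKM + 1) scale, by 0.78 in PANC1 (adjusted p = 0.00632) and by 0.57 in MiaPaCa2 (adjusted p = 0.00343). With library sizes alone 2686 genes were higher and 677 lower, in place of 1730 and 1167.

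Whether the drugs acted together beyond the sum of their log2 effects was tested by an interaction term, and 0 members were called in either line. In MiaPaCa2 0.00623% of all genes had a positive and 0.0187% a negative term, and in PANC1 0% and 0%. At an unadjusted p under 0.05 the members with a positive and a negative term were 2 and 1 in MiaPaCa2 and 0 and 5 in PANC1. No share of all genes is given at that unadjusted p. By edgeR and DESeq2 0 members were called. The smallest adjusted p was 0.344, for SLC7A11 in MiaPaCa2, whose term was 1.18, and 0.734 in PANC1. After the GC correction 1 member had a negative term in PANC1, HMOX1 at −1.04 (adjusted p = 0.0483).

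Genes around the members were read from lists kept apart from them, and their counts stand beside the shares of all genes given above for each comparison (4.18% higher and 4.13% lower with genistein, 15.0% and 14.6% with gemcitabine and 20.3% and 20.2% with both drugs in MiaPaCa2, then 0.0591% and 0%, 4.49% and 3.03%, and 10.2% and 6.90% in PANC1). Of 40 other glutathione and thioredoxin enzymes, 4 were called higher and 2 lower with genistein in MiaPaCa2, led by ABCC2, an exporter of conjugates (log2 −0.75, SE 0.09, adjusted p = 0.000678), and GSTM3, a glutathione transferase (0.55, SE 0.09, adjusted p = 0.00415). With gemcitabine 9 rose and 2 fell there, led by the glutaredoxin GLRX (1.65, SE 0.14, adjusted p = 9.34e-06) and IDH2, a mitochondrial source of NADPH (1.26, SE 0.10, adjusted p = 4.96e-06). With both drugs 15 rose and 3 fell, and GLRX stood at 2.48. In PANC1 0 of the 40 were called with genistein, 2 rose and 3 fell with gemcitabine, and 6 rose and 3 fell with both drugs, among them CHAC1, which degrades glutathione (1.48, SE 0.23, adjusted p = 0.00464), and GPX3 (1.37, SE 0.14, adjusted p = 0.00126). Corrected for GC content, the list had 5 higher and 1 lower with genistein, 5 and 4 with gemcitabine and 13 and 3 with both drugs in MiaPaCa2, and 4 and 1, 3 and 5, and 6 and 6 in PANC1.

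Of 20 other regulators of NRF2, the small MAF gene MAFF and the autophagy adaptor SQSTM1 were the 2 called higher with genistein in MiaPaCa2, at 0.69 (SE 0.15, adjusted p = 0.0155) and 0.68 (SE 0.08, adjusted p = 0.00095), and 0 were called lower. Gemcitabine raised MAFF by 1.03 in MiaPaCa2 (SE 0.15, adjusted p = 0.000248) and by 2.22 in PANC1 (SE 0.16, adjusted p = 0.000871). This list had 3 higher and 6 lower with gemcitabine in MiaPaCa2 and 2 higher and 0 lower in PANC1. With both drugs it had 5 higher and 7 lower in MiaPaCa2 and 1 higher and 1 lower in PANC1, with MAFF at 1.52 and 2.97. Counted with the GC correction, it had 2 higher and 0 lower with genistein, 2 and 3 with gemcitabine and 3 and 5 with both drugs in MiaPaCa2, and 2 and 0, 3 and 2, and 4 and 7 in PANC1, where 4.24% and 3.41%, 11.8% and 6.53%, and 16.8% and 12.8% of all genes were then called.

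Of 25 other genes of iron and haem handling, 22 were tested in MiaPaCa2 and 23 in PANC1. Genistein alone was followed by 3 calls higher and 0 lower in MiaPaCa2, among them the haem synthesis enzyme ALAD (0.41, SE 0.11, adjusted p = 0.0297) and the iron regulatory protein ACO1 (0.45, SE 0.10, adjusted p = 0.0148), and by 0 in PANC1. With gemcitabine 1 rose and 5 fell in MiaPaCa2 and 0 rose and 1 fell in PANC1. With both drugs 8 rose and 6 fell in MiaPaCa2, with ALAD at 1.11 (SE 0.10, adjusted p = 3.74e-06) and IREB2, the other iron regulatory protein, at −1.07 (SE 0.16, adjusted p = 0.000131). In PANC1 2 rose and 1 fell, the last being the mitochondrial iron importer SLC25A37 (−0.92, SE 0.13, adjusted p = 0.00296). Once corrected for GC content, ALAD and ACO1 were at 0.28 and 0.39 with genistein in MiaPaCa2, under the fold limit. The list then had 1 higher and 1 lower with genistein, 3 and 4 with gemcitabine and 5 and 5 with both drugs in MiaPaCa2, and 2 and 2, 0 and 3, and 3 and 2 in PANC1.

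Markers of 2 other stress responses were read in the same libraries. Of 12 genes of the integrated stress response, 2 were called higher with genistein in MiaPaCa2 (DDIT3 at 0.89, SE 0.15, and ASNS at 0.45, SE 0.08) and 4 in PANC1 (ATF3 at 1.52, DDIT3 at 1.10, ASNS at 1.10 and ATF4 at 0.85, adjusted p from 0.0264 to 0.0499), and 0 were lower in either. The median of this list was 0.20 in MiaPaCa2 and 0.82 in PANC1. With GC content corrected, 3 of the 12 were called higher with genistein in MiaPaCa2 and 12 of 12 in PANC1, where 4.24% of all genes were. With gemcitabine 3 rose and 2 fell in MiaPaCa2 and 2 rose and 1 fell in PANC1, with ATF3 at 1.98 (adjusted p = 0.000326) and 4.03 (adjusted p = 5.01e-05), counts that were 2 and 4 in MiaPaCa2 and 4 and 1 in PANC1 after the correction. The 2 that fell in MiaPaCa2 were ATF4 (−0.83, adjusted p = 2.51e-05) and PSAT1 (−0.71, adjusted p = 6.69e-05). With both drugs against control, 7 of the 12 rose and 0 fell in MiaPaCa2, where 20.3% and 20.2% of all genes were called. In PANC1 7 rose and 1 fell, where 10.2% and 6.90% were. Corrected for GC content these counts were 5 and 3 in MiaPaCa2 and 9 and 1 in PANC1. Of 8 aryl hydrocarbon receptor markers, 7 were tested, and with genistein the 1 called higher in each line was NQO1, which is also a member. After the correction 2 were higher in MiaPaCa2 and 3 in PANC1. With gemcitabine AHR, CYP1A1 and CYP1B1 rose in MiaPaCa2 by 0.84, 0.60 and 0.46 (adjusted p = 0.00373, 0.00403 and 0.0174) and 0 fell. In PANC1 0 rose and 1 fell with gemcitabine. After the correction the gemcitabine counts were 4 higher and 0 lower in MiaPaCa2 and 1 and 1 in PANC1. With both drugs 3 rose and 0 fell in MiaPaCa2, and 1 rose and 2 fell in PANC1. The part of either response in the members' differences was not tested.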

How the data were processed

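Poly-A RNA of 16 libraries (2 cell lines, 4 groups of 2 replicates each) was sequenced. The authors aligned reads to GRCh37 with TopHat2 2.0.4, removed reads with several alignments with Picard 1.29, and deposited raw read counts per gene from HTSeq 0.6.1 and FPKM values from Cufflinks 2.1.1. The strand setting of the counting is not given in the sources used here. The libraries held 12943482 to 31991860 counted reads, and intervals and floors cover counting error only. Counts were tested with limma 3.58.1 (voom, TMM factors and low-count filter of edgeR 4.0.16, R 4.3.3), with the 8 libraries of a line in one model and all 16 for comparisons of lines, two-sided, adjusted by Benjamini-Hochberg over all genes tested. Calls needed 3 things, which were an adjusted p no higher than 0.05, a log2 difference of 0.4 or more in size, and over 1 FPKM on average in the treated group (in either line for the untreated comparison). Interaction and response differences were called by adjusted p alone. SRXN1 was tested on log2(FPKM + 1) by limma-trend. FPKM, the scale of all levels, are set by length and depth. The GC correction removed a loess trend (span 0.3) of each library over gene GC content. Alternatives included edgeR's quasi-likelihood test, DESeq2 1.42.0, other scalings and filters, and each library left out, and the scripts were tested on simulated data. Members that passed a call, or differed between untreated lines by a log2 of at least 1, are given with values, and from each further list up to 4 called genes with the largest change could be named. The members and lists were chosen with earlier results of these data known. Same-numbered replicates were not treated as pairs.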

Additional observations from a re-analysis of the deposited data

Results flagged for a closer look

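The response to gemcitabine differed between the lines for 8 members by the test of the difference itself (limma-voom, PANC1 minus MiaPaCa2, 16 libraries, Benjamini-Hochberg over all genes). SLC7A11 had a difference of 1.65 log2 units (adjusted p = 0.0265), and 0.94 after the GC correction. The 7 negative differences were −1.11 for KEAP1, −1.05 for GPX4, −0.93 for PIR, −0.90 for EPHX1, −0.82 for CBR1, −0.73 for GSR and −0.54 for BLVRA, with adjusted p from 0.0011 for PIR to 0.0305 for BLVRA. After the GC correction these 7 lay between −0.43 for BLVRA and −0.90 for PIR.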

How the results depend on the processing

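Among 80 called values of members, the alternatives kept the call in 1134 cases, lost it in 206 and turned the direction in 1, which was GPX4 between the untreated lines after GC correction, at −0.012. The alternative of adjusted p alone could not lose a call, since it drops the fold and FPKM criteria from the same fit. Its kept cases were thus fixed beforehand. The counts below are members called, with the cause of each shift not tested. The share of all genes called under the same setting is not given beside them. In MiaPaCa2, gemcitabine gave 4 higher with the GC correction, with or without the replicate block, 1 lower on either FPKM scale and 9 lower by adjusted p alone. By adjusted p alone genistein gave 1 lower, both drugs against gemcitabine 6 higher and both drugs against control 7 lower, and both drugs against gemcitabine gave 0 higher on either FPKM scale. In PANC1, gemcitabine gave 1 higher with the GC correction, and lower counts of 8 by DESeq2, 8 with the GC correction, 9 with all 16 libraries in one model, 3 without the low-count filter, 1 with library size alone, and 0 on FPKM or from the 4 libraries compared. Genistein there gave 9 higher by DESeq2, 0 with DESeq2 size factors, 4 with library size alone, 5 on FPKM, 11 with the GC correction, 10 with all 16 libraries and 7 from the 4 libraries, and 1 lower with the GC correction or all 16 libraries. Both drugs against gemcitabine gave 3 higher by DESeq2 and with all 16 libraries, 1 on FPKM, and 6 higher and 3 lower with the GC correction. Both drugs against control gave 5 higher and 1 lower on FPKM, 0 higher and 1 lower from the 4 libraries, and 6 lower with the GC correction and 5 with all 16 libraries. The PANC1 interaction gave 1 lower with the GC correction. Between the lines, genistein gave 3 higher by DESeq2 and 7 higher and 2 lower with the GC correction, and gemcitabine 2 higher with the GC correction and 4 lower on FPKM.

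Differences of replicate I minus II had correlations between groups of −0.207 to 0.128 in MiaPaCa2 and −0.507 to 0.292 in PANC1. These were not corrected for GC content. The GC slopes of replicates I and II were 0.306 and −0.0803 in the PANC1 controls and −0.164 and 0.246 with both drugs. The correlations therefore cannot decide whether same-numbered libraries formed pairs. With the replicate block the PANC1 count was 1 lower for gemcitabine and 0 higher for genistein, and the line difference for gemcitabine had 0 higher. The block with the GC correction gave 1 higher and 8 lower for gemcitabine in PANC1, 11 higher and 1 lower for genistein, 5 higher and 2 lower for both drugs against gemcitabine, 6 lower for both drugs against control, and 3 higher and 1 lower for genistein and 2 higher for gemcitabine between the lines.

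Leaving out 1 library leaves a lone library assumed to vary like the others, and the member counts that follow have no share of all genes beside them. In MiaPaCa2 the counts ranged from 3 to 6 higher and 2 to 4 lower for gemcitabine, 3 to 8 higher for genistein, 1 to 8 higher for both drugs against gemcitabine and 2 to 4 lower for both drugs against control. In PANC1 they ranged from 0 to 6 lower for gemcitabine, 0 to 1 higher for genistein and 3 to 4 lower for both drugs against control. Between the lines they ranged from 0 to 2 higher for genistein, and 0 to 1 higher and 3 to 15 lower for gemcitabine. Scaling by library size alone moved the median of all genes by 0.107 for gemcitabine in MiaPaCa2, 0.111 for gemcitabine and 0.158 for both drugs in PANC1, and 0.101 for the line difference for gemcitabine.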
